A study of Mus musculus with 20 samples.

Results

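The interferon-stimulated genes described here are 33 genes whose products block, sense or tag viral material or regulate that response. They were taken by symbol from a list drawn up with earlier results of these data known, and each gene is given by 1 probe set, the brightest on average over the 20 arrays. A usable probe set was found for 31 of the 33, out of 18194 genes measured in all. The probe set for Isg15 carries more than 1 gene symbol and was not used, and Ifi44 is not analysed here.

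Total RNA of C57BL/6 mouse bone marrow cells was measured on Affymetrix mouse expression arrays in 10 groups, each of 2 arrays. The study asked how dendritic cells (DC) develop from their progenitors and what the cytokine TGF-β1 does to that step. Conventional DC (cDC), the main antigen-presenting subset, and plasmacytoid DC (pDC), known for making type I interferon, had been differentiated in culture from amplified progenitors. The other groups were common dendritic cell progenitors isolated directly from marrow (in vivo CDP), cultured and amplified CDP, amplified multipotent progenitors (MPP), and a separate series of amplified CDP that were untreated (0 h) or had received TGF-β1 for 4, 8, 12 or 24 h. Neither the dose of TGF-β1 nor how many mice or cultures were used is stated. No sample is an untreated culture of 4 to 24 h, so TGF-β1 and hours of culture cannot be told apart. Nothing states that the 2 arrays of a group came from separate mice or cultures, so p-values measure only the spread between these samples, which may be technical.

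Each labelled DC type had the highest sum of its own marker list among cDC, pDC and CDP. The summed log2 level of 6 cDC markers was 62.1 to 62.9 in cDC, against 47.5 to 48.6 in pDC and 30.7 to 37.6 in CDP. That of 6 pDC markers, including the interferon-induced Bst2, was 81.4 to 83.0 in pDC, against 53.2 to 54.9 in cDC and 31.1 to 36.6 in CDP. The sum of 5 granulocyte genes was 14.01 to 14.7 in cDC and 13.3 to 13.4 in pDC, with none of the 5 above a log2 value of 5, against 39.4 to 47.2 in CDP. Not every marker followed the labels. Of the cDC markers, Itgax and Sirpa were not higher in cDC than in pDC (differences of -0.70 and -0.44). The sum of 4 progenitor markers was 36.5 to 37.3 in cDC and 30.1 to 31.0 in pDC, against 35.4 to 36.1 in CDP. From CDP to cDC, Kit and Flt3 differed by 6.06 and 1.33, and Cd34 and Myb by -2.49 and -3.75. The deposited values fall on 2 scales. The 10 arrays outside the TGF-β1 series share a lowest value of 2.25, at which 33.7% to 35.5% of their probe sets lie, and the TGF-β1 arrays share none, so levels are compared only within each set. MPP, CDP, cDC and pDC RNA was labelled from 1000 ng by a one-cycle kit. A 3′ IVT kit was used for the TGF-β1 series (250 ng) and for in vivo CDP (50 ng), whose RNA was also extracted differently.

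Interferon-stimulated genes are switched on when a type I or type III interferon binds its receptor and the kinases JAK1 and TYK2 act on STAT2. With IRF9 it is part of the factor ISGF3, which binds a promoter element called ISRE. Interferon-gamma acts on another element, called GAS, and controls several of the GTPases listed here. Plasmacytoid DC are known to keep interferon pathway components such as IRF7 at high levels, which lets them answer viral nucleic acid quickly.

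Of the 33 genes, 25 had a promoter in the RefSeq table of GRCm38.p6, each covering 250 bases before to 50 bases after a start site. The ISRE core was searched as GAAANNGAAA on both strands, which reads TTTCNNTTTC on the other strand, and the GAS core as TTCNNNGAA, which is its own reverse complement. The ISRE core was present in 15 of the 25 genes (60%), against 3.99% of all 27025 genes of that table. The GAS core was present in 7 of the 25 (28%), against 9.55%, and no GAS match overlapped an ISRE match. The windows below, 1 for each of 11 members, are written 5′ to 3′ on the gene's own strand, with 1 core in capitals. Ifit3, Oas1a, Irgm1 and Gbp3 each have a second core. In Oas1a, Irgm1 and Gbp3 it overlaps the one shown, and its other letters are in lower case. Trim30a also has a core at another start site. Ifit1, Eif2ak2, Oas3 and Isg15 have a core too, and their windows are not shown.
Ifit3: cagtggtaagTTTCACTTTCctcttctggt
Rsad2: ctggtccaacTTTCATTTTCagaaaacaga
Oas1a: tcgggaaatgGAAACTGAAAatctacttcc
Ddx58: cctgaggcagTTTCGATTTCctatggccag
Ifih1: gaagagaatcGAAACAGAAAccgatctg
Irgm1: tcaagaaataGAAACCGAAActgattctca
Igtp: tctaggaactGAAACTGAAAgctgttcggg
Gbp2: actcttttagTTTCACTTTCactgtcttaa
Gbp3: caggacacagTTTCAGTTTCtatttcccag
Stat2: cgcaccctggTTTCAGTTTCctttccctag
Trim30a: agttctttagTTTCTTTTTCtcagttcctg
The windows lie at chr19:34583363-34583392 (plus strand) for Ifit3, chr12:26456553-26456582 (minus) for Rsad2, chr5:120907520-120907549 (minus) for Oas1a and chr4:40239804-40239833 (minus) for Ddx58. Those of Ifih1, Irgm1 and Igtp are at chr2:62646206-62646233 (minus), chr11:48871425-48871454 (minus) and chr11:58199512-58199541 (plus). Those of Gbp2, Gbp3, Stat2 and Trim30a are at chr3:142620594-142620623 (plus), chr3:142559989-142560018 (plus), chr10:128270266-128270295 (plus) and chr7:104465210-104465239 (minus). The core shown began 156 bases before the start site in Ifit3, 59 before it in Gbp2 and 45 before it in Gbp3. In Ddx58 and Ifih1 it began after the start, at transcript positions 3 and 33. A match describes these letters only and does not show that a factor binds there. Igtp, Gbp2 and Gbp3, whose values moved differently from each other below, all have a core of this form within the window searched. Cmpk2, Herc6, Ifi35, Ifi44, Ifit2, Isg20, Oasl1, Oasl2, Samhd1 and Xaf1 have no exact match to this ISRE core in the window searched, though several of them carry results below. That does not show that they lack such an element. Usp18, Zbp1, Mx1, Mx2, Parp14, Oas2, Rtp4 and Dhx58 have no entry in the promoter table.

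In both DC types most members stood far higher on the array numbered 1 than on the array numbered 2, and this split comes before any comparison of groups. Of the 31 measured members, 29 had a value above 5 on at least 2 of the 8 one-cycle arrays and were tested, and Ifit1 and Oas3 were not. Mx2, Oas2 and Oasl1 were above 5 only on the arrays numbered 1 of cDC and pDC. Ddx58 was above 5 only on cDC array 1 and MPP array 1. Their direction on those DC arrays was set by this filter, so split counts that hold them are only a description. In cDC all 29 were higher on array 1, with a median difference of 3.26 log2 units and a range of 0.22 to 5.11. In pDC all 29 were likewise higher on array 1, with a median difference of 2.70 and a range of 0.54 to 5.15. A difference of at least 2 log2 units, which is 4-fold, was found for 24 members in cDC, where it was found for 57 of the 8901 genes tested (0.64%). In pDC it was found for 21 members, and for 64 genes (0.719%) in all. Over all genes the median difference between the arrays was 0.01 in cDC and -0.01 in pDC.

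**Figure D1:**
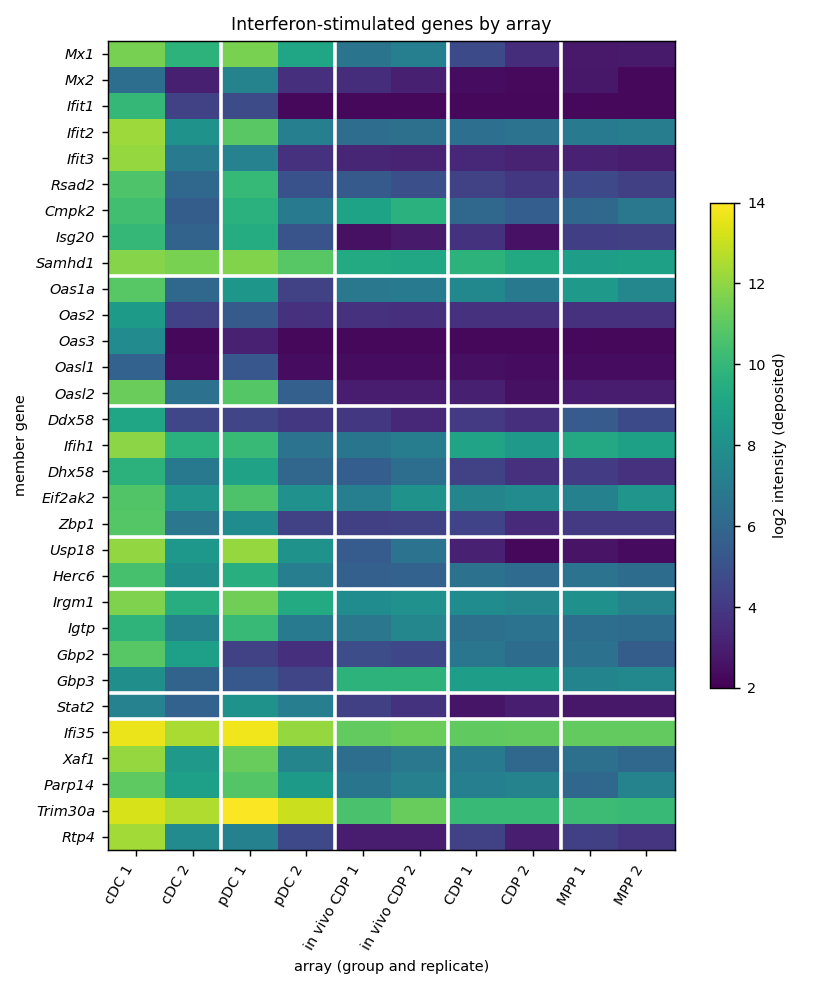
Deposited log2 level (colour, 2 to 14) of the 31 measured members (rows) on the 2 arrays each of cDC, pDC, in vivo CDP, CDP and MPP (columns). Array 1 of cDC and of pDC is bright over most rows, with member medians of 10.84 and 9.51, against 6.99 and 5.98 on the arrays numbered 2.

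The viperin gene Rsad2, whose product blocks viral replication, had 10.68 and 6.07 in cDC, 10.03 and 5.03 in pDC, 5.38 and 4.91 in the in vivo CDP, 4.34 and 3.93 in CDP and 4.63 and 4.26 in MPP. All 4 DC arrays lay above both CDP arrays, the second ones by far less than the first. Oas1a, a sensor of double-stranded RNA that activates RNase L, had 10.86 and 6.01 in cDC, 8.37 and 4.35 in pDC, 7.59 and 6.85 in CDP and 8.46 and 7.57 in MPP. Here the second DC arrays lay below both CDP arrays, and the first lay above them. Ifit1, which binds viral RNA that lacks the host cap modification, had 9.97 and 4.32 in cDC and 4.77 and 2.25 in pDC, and sat at 2.25 on every other array of this set. Among the tested members the split in cDC was smallest for Samhd1, which depletes the nucleotides that viruses need, at 0.22, followed by Trim30a (0.70), Ifi35 (1.17) and Stat2 (1.54). In pDC it was smallest for Ddx58, which encodes the RNA sensor RIG-I, at 0.54 with both arrays below 5, followed by Gbp2 (0.66), Gbp3 (0.81), Samhd1 (0.85) and Trim30a (0.89). Ddx58, by contrast, was 4.48 apart in cDC.

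By role, the median split in cDC was largest in the OAS family (4.48 in cDC, 3.43 in pDC) and the antiviral effectors (4.12 and 3.64). It was 2.83 and 2.92 for the nucleic acid sensors, 3.09 and 3.17 for Usp18 and Herc6 of the ISG15 system, and 2.17 and 1.44 for the GTPases. Other probe sets of the same genes split too: in cDC 21 of 22 with a value above 5 on either array were higher on array 1, with a median of 2.63, and in pDC all 17 were, with a median of 2.29. Among members with an ISRE core in the promoter window the median split was 2.44 in cDC and 2.30 in pDC (14 members), and among those with a promoter but no core it was 3.65 and 2.83 (9 members).

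The genes 4-fold apart were largely shared by the DC types. Array 1 was higher by at least 2 in both cDC and pDC for 39 of 8901 genes (0.438%), which is 68.4% of the cDC list and 60.9% of the pDC list. Members made up 20 of these 39, and 9 more came from a list of 34 other tested interferon-induced genes, together 74.4%. The 20 include Mx2 and Oasl1, which entered the test only through the arrays numbered 1. The lists of genes upstream of the response had medians nearer to 0, though single genes in them split. Irf7 was the 1 of 7 regulatory factors at least 2 log2 units higher on array 1 in cDC. Irf7 and Irf9 were higher on array 1 in both DC types. Stat2 and the nucleic acid sensors, counted among the members, split by 1.54 and 2.83 in cDC and by 1.02 and 2.92 in pDC. The receptor and JAK-STAT list had a median split of -0.02 in cDC and -0.01 in pDC, the interferon regulatory factors 0.10 and -0.14, and the genes for sensing and interferon induction -0.32 and -0.04. Interferon beta (Ifnb1) was at 2.25 to 2.32 on all arrays of this set, and no measured interferon gene (10 of 16 listed) exceeded 2.83 on any of them.

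Markers of the DC types themselves moved little between the same arrays, with a median split of 0.17 for cDC markers in cDC and 0.14 for pDC markers in pDC, although pDC markers had a median of -0.48 in cDC. Both CDP markers, the cytokine receptor genes Flt3 and Csf1r, were lower on array 1, with summed levels of 21.4 and 22.7 on the cDC arrays and 17.7 and 21.2 on the pDC arrays. Csf1r alone had 7.63 and 10.48 in pDC. Monocyte and macrophage markers (3 of 4 measured) were lower on array 1, with summed levels of 20.4 and 21.5 on the cDC arrays and 13.5 and 19.99 on the pDC arrays. The macrophage marker Adgre1 had 4.32 and 8.86 in pDC. The 3 mast and basophil markers summed to 6.83 and 15.3 on the cDC arrays, with none above 5 on array 1, and to 6.82 and 7.33 on the pDC arrays, with none above 5 on either. The difference between 3′ and 5′ Gapdh probe sets, a measure of RNA integrity, was -0.20 and -0.09 on the cDC arrays and -0.21 and -0.06 on the pDC arrays. The sources used here do not say what else differed between the cultures, and the part of any of these values in the split was not tested. In no other group was a member 2 log2 units apart. The median member differed by 0.36 between the CDP arrays, 0.09 between the MPP arrays, -0.14 between the in vivo CDP arrays, and 0.13 to 0.31 within the TGF-β1 groups.

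**Figure D2:**
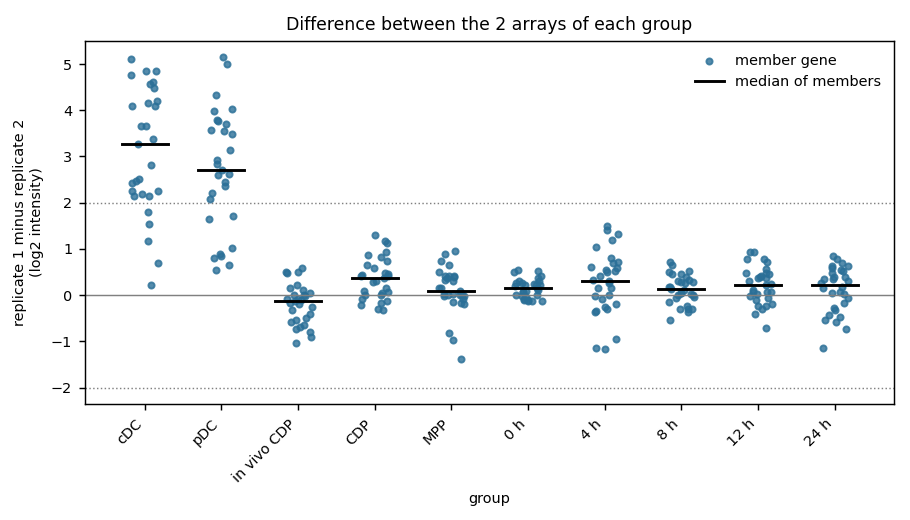
Difference in log2 level between array 1 and array 2 (vertical axis) for each tested member (dots) in the 10 groups (horizontal axis), with bars at the medians and dotted lines at 2 and -2. The cDC and pDC dots all lie above 0, with medians of 3.26 and 2.70, and no dot of another group is beyond a dotted line.

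Against cultured CDP, cDC had more of nearly every member, by an amount that depended on the array. On cDC array 1, 28 of 29 members were above both CDP arrays (36% of all genes were), with a median of 4.49 log2 units over the CDP mean. On cDC array 2, 25 were (36.2% of genes), with a median of 1.78. On pDC array 1 the count was 27 (37.5% of genes) with a median of 3.70, and on pDC array 2 it was 21 (38.6% of genes) with a median of 0.97. A level at least 2 log2 units over the CDP mean was reached by 28 members on cDC array 1 (6.4% of genes), 12 on cDC array 2 (6.28%), 23 on pDC array 1 (7.34%) and 5 on pDC array 2 (6.91%). In bulk RNA a larger share of expressing cells and more RNA per cell cannot be told apart. The Gapdh 3′ minus 5′ difference was -0.15 and 0.19 on the CDP arrays, against the DC values above. That of actin was 1.23 and 2.11 in CDP, against 0.69 and 0.84 in cDC and 0.84 and 0.94 in pDC. Its part was not tested.

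In limma's fit over the 8 one-cycle arrays, 14 members passed an adjusted p of 0.05 as higher in cDC than in CDP and 0 as lower, where 18.7% of all genes passed as higher and 29.3% as lower (48% in all). The median member difference was 2.88, against -0.16 over all genes. Of the 14, 8 had no progenitor array above 5, as had 13 of the 29 tested members but only 395 of all 8901 genes. These entered the test only through the DC arrays, where they had to be higher. Counts, medians and p-values of members against CDP, in cDC and in pDC, are therefore only a description. The cDC arrays lay wholly above the CDP arrays for 25 members (30.7% of genes) and wholly below for 1 (44.8% of genes). The count of 14 became 8 without cDC array 1, of which 7 were higher, and 22 without cDC array 2. It was 7 without CDP array 1 and 6 without CDP array 2.

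Among the genes listed as antiviral effectors, Mx1 RNA had 11.55 and 9.75 in cDC, against 4.71 and 3.57 in CDP. Both cDC arrays lay far above both CDP arrays, and the difference of 6.51 ± 0.88 (SE) was at least 50.2-fold with an adjusted p of 0.00148. Ifit3, which partners other IFIT proteins in RNA binding, had 12.11 and 6.99 in cDC, against 3.34 and 3.19 in CDP. It rose by 6.28 ± 1.69, at least 23.4-fold (adjusted p = 0.0205), although the cDC arrays were 5.11 apart. Samhd1 had 11.82 and 11.60 in cDC, against 9.76 and 9.30 in CDP, a 4.54-fold rise with close arrays (adjusted p = 0.00166). The others did not pass, for example Isg20, an RNA exonuclease, at 9.99 and 5.84 in cDC against 3.77 and 2.59 in CDP (adjusted p = 0.0506). Rsad2 did not overlap between the groups either, but its difference of 4.24 had an adjusted p of 0.0974. Ifit2 had 12.24 and 8.15 in cDC, against 6.39 and 6.57 in CDP (adjusted p = 0.0796).

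Of the 4 tested OAS family genes only Oasl2 passed, at 11.24 and 6.49 in cDC, against 3.04 and 2.56 in CDP, which is at least 14.6-fold (adjusted p = 0.0349). Oas1a differed by 1.21 with overlapping arrays (adjusted p = 0.594). Among the sensors, Zbp1, which detects left-handed nucleic acid and triggers cell death, had 10.84 and 6.75 in cDC, against 4.41 and 3.48 in CDP, at least 13.9-fold (adjusted p = 0.0319). Dhx58, the regulator LGP2 of the RIG-I pathway, had 9.69 and 6.86 in cDC, against 4.38 and 3.72 in CDP, at least 9.68-fold (adjusted p = 0.0198). Both pairs of groups were separate. RIG-I itself (Ddx58) had 9.06 and 4.57 in cDC, against 4.02 and 3.66 in CDP, and did not pass. MDA5 (Ifih1) and the kinase PKR (Eif2ak2) were already well above 5 in CDP and differed by 2.08 and 1.86 (adjusted p = 0.177 and 0.169).

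Usp18, the protease that removes ISG15 from proteins and damps the type I receptor, gave the largest mean difference. It had 12.05 and 8.39 in cDC, against 3.12 and 2.25 in CDP, a difference of 7.54 ± 1.48 that is at least 37.3-fold (adjusted p = 0.00623). Herc6, the mouse ligase that attaches ISG15, had 10.49 and 7.97 in cDC, against 6.5 and 6.19 in CDP, 7.37-fold higher (adjusted p = 0.0417). Rtp4, a chaperone of membrane receptors, had 12.34 and 7.78 in cDC, against 4.31 and 3.01 in CDP, at least 33.3-fold higher (adjusted p = 0.0114). All 3 had both cDC arrays above both CDP arrays, with 2.52 to 4.56 between the cDC arrays. Stat2 had 7.33 and 5.79 in cDC, against 2.69 and 3.0 in CDP, at least 2.94-fold higher (adjusted p = 0.0017). Trim30a, a ubiquitin ligase that restrains inflammatory signalling, had 13.29 and 12.58 in cDC, against 10.11 and 10.07 in CDP, 7.18-fold higher (adjusted p = 0.000926). Irgm1 and Ifi35 rose 7.34-fold and 3.95-fold (adjusted p = 0.0284 and 0.025). The calls for Mx1, Samhd1, Stat2, Trim30a, Usp18 and Gbp2 did not depend on any 1 array. That for Rtp4 was lost without CDP array 2 (adjusted p = 0.0643), and those for Ifit3, Oasl2, Dhx58, Zbp1, Herc6, Irgm1 and Ifi35 were lost without either CDP array or without cDC array 1.

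In pDC, 9 members passed as higher than in CDP and 2 as lower, where 21.7% of genes passed as higher and 31.6% as lower (53.2% in all). The median member difference was 2.29, against -0.14 over all genes. Of the 9, 5 had no progenitor array above 5 and entered only through the DC arrays. The count and the p-values of these 5 are thus only a description here too. The pDC arrays were wholly above the CDP arrays for 21 members (33.2% of genes) and wholly below for 2 (44.8% of genes). The count of 11 was 7 without pDC array 1, 18 without pDC array 2, and 6 without either CDP array. The 9 that rose were Usp18, Mx1, Oasl2, Stat2, Trim30a, Dhx58, Irgm1, Ifi35 and Samhd1, all of which had also passed in cDC. The cDC and pDC comparisons share their CDP arrays, so this is no independent repeat.

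Usp18 had 12.12 and 8.13 in pDC, against 3.12 and 2.25 in CDP, at least 34.9-fold higher (adjusted p = 0.00528). Mx1 had 11.57 and 9.12 in pDC, against 4.71 and 3.57 in CDP, at least 40.6-fold higher (adjusted p = 0.00128). Stat2 had 8.17 and 7.14 in pDC, against 2.69 and 3.0 in CDP, at least 6.29-fold higher (adjusted p = 0.000432). For these genes each pDC array was above both CDP arrays by more than the CDP arrays differed. Trim30a had 13.95 and 13.06 in pDC, against 10.11 and 10.07 in CDP, 10.7-fold higher (adjusted p = 0.000303). Samhd1 had 11.74 and 10.89 in pDC, against 9.76 and 9.30 in CDP, 3.47-fold higher (adjusted p = 0.00278). The rises of Oasl2 (adjusted p = 0.0452), Dhx58 (0.0389), Irgm1 (0.0338) and Ifi35 (0.0285) were lost without either CDP array or without pDC array 1, with adjusted p of 0.0856 to 0.217.

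The guanylate-binding proteins, interferon-gamma-inducible GTPases that attack the membranes around intracellular microbes, went the other way in pDC. Gbp3 had 5.30 and 4.49 in pDC, against 8.70 and 8.71 in CDP, and fell by 3.81 ± 0.63, which is 14.1-fold (adjusted p = 0.00247). Gbp2 had 4.33 and 3.67 in pDC, against 6.71 and 6.26 in CDP, and fell by 2.49 ± 0.68, at least 2.8-fold (adjusted p = 0.0194). The 2 groups were separate for both genes, and the array split within pDC, 0.81 and 0.66, was small beside that of most members. The Gbp2 call was lost without either CDP array or without pDC array 2. In cDC, Gbp3 had 7.95 and 5.81, also below CDP, with an adjusted p of 0.0503.

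**Figure D3:**
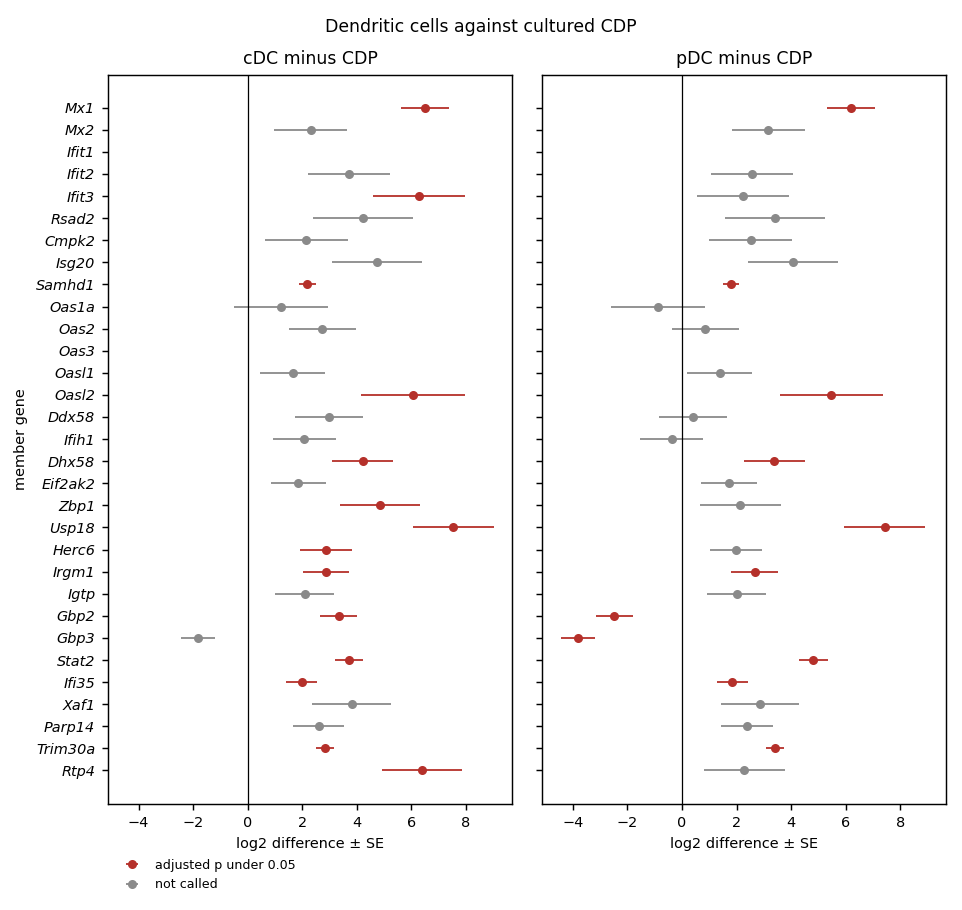
Log2 difference ± SE (limma, n = 2 arrays a group) of each member in cDC minus CDP (left) and pDC minus CDP (right), red where the adjusted p is under 0.05. Most points lie right of 0 with wide bars, and Gbp2 lies at 3.34 in cDC but at -2.49 in pDC.

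Between the DC types only Gbp2 passed, where 25.5% of genes did (12.8% as higher in cDC and 12.7% as lower). It had 10.90 and 8.75 in cDC, against 4.33 and 3.67 in pDC, a difference of 5.83 ± 0.68 that is at least 28.4-fold (adjusted p = 0.00112). Each cDC array was above each pDC array by over 4 log2 units. The call held without any 1 array. The probe set used for Gbp2 is of a kind that can bind more than 1 transcript. A second Gbp2 probe set had 10.54 and 8.53 in cDC, against 3.42 and 3.43 in pDC. The arrays were also separate, all higher in cDC, for Gbp3 (7.95 and 5.81 in cDC, 5.30 and 4.49 in pDC, adjusted p = 0.0615), Rtp4 (adjusted p = 0.087) and Ddx58 (adjusted p = 0.184), in all 4 members where 32.3% of genes were separate in this direction. Without cDC array 2 the count of calls was 6, and without both DC arrays numbered 2 it was 8, all higher in cDC. A missed threshold does not show that cDC and pDC had equal levels of the other members.

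CDP and MPP did not differ in any member at the threshold, where 3.99% of genes passed as higher in CDP and 3.52% as lower (7.5% in all), and 1 member passed an unadjusted p of 0.05. The median member difference was -0.03. Of the 29 tested members, 13 had no CDP or MPP array above 5, as had only 395 of all 8901 genes. These 13 could hardly pass here, so 0 calls beside the all-gene share does not show equal levels. This fit pools the spread over cDC and pDC too, so their wide array split enters these standard errors. In a fit of only CDP and MPP, 1 member passed, where 307 of 8901 genes did. Gbp3 had 8.70 and 8.71 in CDP, against 7.43 and 7.62 in MPP, a difference of 1.18 with separate arrays (adjusted p = 0.38). Mx1 had 4.71 and 3.57 in CDP, against 2.80 and 2.88 in MPP, all under 5 (adjusted p = 0.499). Arrays were wholly higher in CDP for 5 members and wholly lower for 3, where 24.2% and 23.9% of genes were.

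CDP taken directly from marrow carried more Mx1 and less Gbp2 than cultured CDP. Labelling kit, RNA amount and extraction kit differ between these groups too, and cannot be told apart from the group. The Gapdh 3′ minus 5′ difference was 0.98 and 0.47 in the in vivo CDP, against -0.15 and 0.19 in CDP. That of actin was 1.39 and 1.09 in the in vivo CDP, against 1.23 and 2.11 in CDP. The part of these RNA measures was not tested. Mx1 had 6.62 and 7.2 in the in vivo CDP, against 4.71 and 3.57 in CDP, a difference of 2.77 ± 0.82 that is at least 3.76-fold (adjusted p = 0.0242). Gbp2 had 4.84 and 4.62 in the in vivo CDP, against 6.71 and 6.26 in CDP. It fell by 1.75 ± 0.63, at least 2.8-fold (adjusted p = 0.0484). These were the only calls, 1 higher and 1 lower, where 27.6% and 19.5% of genes passed (47.1% in all). Each was lost without either in vivo array or without CDP array 2, and Gbp2 also without CDP array 1. Members whose arrays were separate without passing included Cmpk2, a mitochondrial nucleotide kinase, with 8.97 and 9.66 in the in vivo CDP, against 6.01 and 5.60 in CDP (adjusted p = 0.0695). Usp18 had 5.51 and 6.55 in the in vivo CDP, against 3.12 and 2.25 in CDP (adjusted p = 0.0772). The arrays were wholly higher in vivo for 10 members (42.5% of genes) and wholly lower for 4 (33%). The median difference was 0.11, against 0.10 over all genes. The fit used here also pools the spread over cDC and pDC, so their array split enters these standard errors. In a fit of only in vivo CDP and CDP, 10 members passed (8 higher and 2 lower), where 3506 of 9122 genes did.

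During TGF-β1 the median member lay below its 0 h level at 8 h and 12 h and above it at 24 h, and few members passed before 24 h. No member passed at 4 h, 1 fell at 8 h, 1 fell at 12 h, and 6 rose and 1 fell at 24 h, each against 0 h and of 30 tested. Of all genes, 0.569% passed as higher and 0.079% as lower at 4 h (0.648% in all), 1.2% and 0.348% at 8 h (1.55%), 3.68% and 1.68% at 12 h (5.37%), and 10.8% and 8.42% at 24 h (19.2%). At 4 h, 2 members passed an unadjusted p of 0.05. Arrays of the same number deviated together in this series, with correlations of 0.27 to 0.85 over all 10 pairs of times. The pairs among 4, 12 and 24 h had the highest, 0.67 to 0.85, against 0.27 to 0.54 for the others. At these times array 1 also had low 5′ signal, given below, so number and 5′ signal cannot be told apart there. The labels do not say what a number stands for. With the number fitted as a block, 0 members passed at 4 h, 5 fell at 8 h, 8 fell at 12 h, and 13 rose and 1 fell at 24 h, where 153, 566, 1534 and 3807 of the 12656 genes passed in either direction. The median member difference was -0.11, -0.30, -0.29 and 0.56 at the 4 times, and the all-gene median was 0.01 or nearer to 0 at each. The lowest mean of the series was reached at 8 h by 12 members (13.6% of genes) and at 12 h by 10 (8.41%). The highest mean came at 24 h for 22 members, as it did for 30% of genes. Arrays were wholly below 0 h for 9 members at 4 h (17.7% of genes), 18 at 8 h (24.5%), 17 at 12 h (25%) and 5 at 24 h (30.5%). They were wholly above for 1 (19.5%), 2 (27.2%), 3 (30.9%) and 17 (32.2%).

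**Figure D4:**
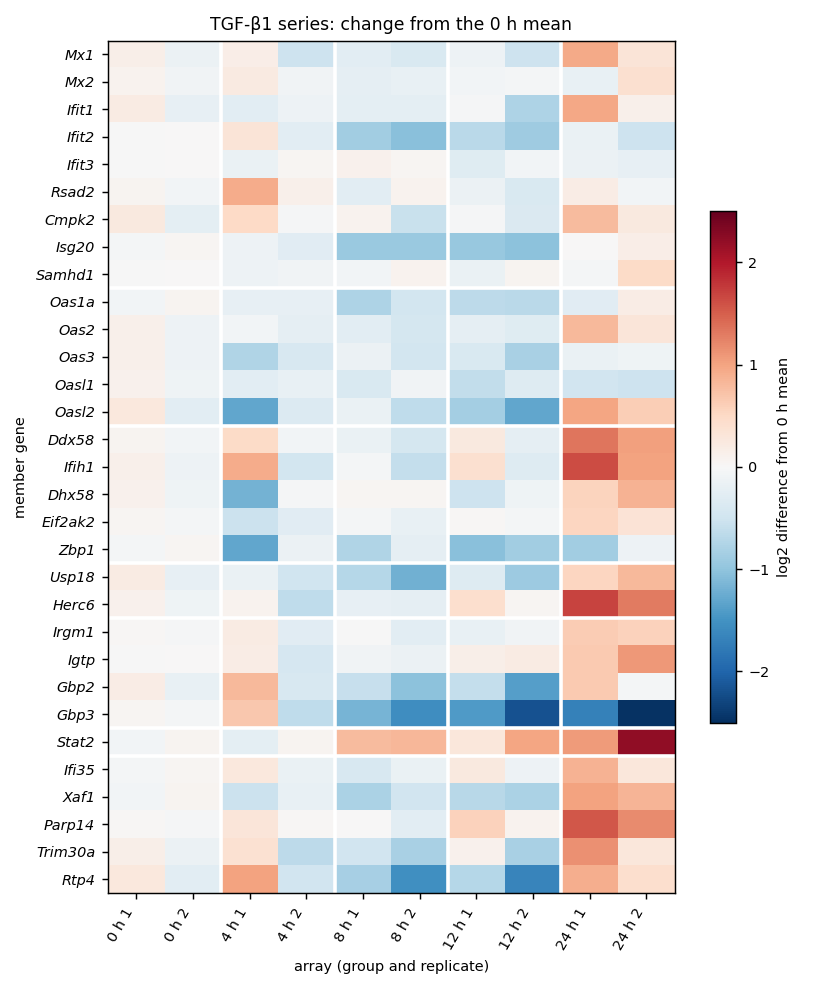
Difference of each array from the 0 h mean in log2 units (colour, -2.5 to 2.5) for the measured members (rows) over the 10 arrays from 0 h to 24 h (columns). The 8 h and 12 h columns are mostly below 0 and the 24 h columns mostly above, with member medians of -0.30, -0.29 and 0.56, and Gbp3 stands out as lower at 24 h.

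Isg20 was the member that passed in the dip. Before TGF-β1 it had 6.84 and 6.94, then 6.76 and 6.60 at 4 h, 5.96 and 5.96 at 8 h, 5.95 and 5.87 at 12 h, and finally 6.91 and 7.07 at 24 h. The 8 h and 12 h arrays lay below every other array of the series. It fell by 0.94 ± 0.15 at 8 h, 1.91-fold (adjusted p = 0.0269), and by 0.98 ± 0.15 at 12 h, 1.98-fold (adjusted p = 0.00983). Both calls were lost when any 1 array of the groups compared was left out. Ifit2 had 7.01 and 7.02 at 0 h, 6.16 and 5.98 at 8 h and 6.34 and 6.13 at 12 h, below 0 h on each array without passing (adjusted p = 0.105 and 0.0992). Usp18 had 6.57 and 6.17 before treatment, 6.2 and 5.87 at 4 h, 5.67 and 5.17 at 8 h, 6.04 and 5.47 at 12 h, and then 6.90 and 7.19 at 24 h. It passed the F-test over all times (adjusted p = 0.0386) but no single time against 0 h.

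At 24 h the 6 members that rose were Parp14, Herc6, Xaf1, Ddx58, Stat2 and Igtp, and 0 of the 8 tested antiviral effectors and 0 of the 5 OAS family genes passed. Parp14, an ADP-ribosyltransferase, had 9.90 and 9.51 at 24 h, against 8.36 and 8.31 at 0 h, 2.58-fold higher (adjusted p = 0.00496). Herc6 had 7.70 and 7.31 at 24 h, against 6.12 and 5.89 at 0 h, 2.83-fold higher (adjusted p = 0.00693). Xaf1, an apoptosis-promoting antagonist of XIAP, had 8.91 and 8.75 at 24 h, against 7.85 and 7.97 at 0 h, 1.9-fold higher (adjusted p = 0.0107). In each case both 24 h arrays lay above both 0 h arrays. Ddx58 had 7.31 and 7.0 at 24 h, against 6.05 and 5.89 at 0 h, 2.27-fold higher (adjusted p = 0.0144). Stat2 had 7.22 and 8.37 at 24 h, against 6.10 and 6.23 at 0 h, 3.1-fold higher (adjusted p = 0.0196). The GTPase Igtp had 9.07 and 9.51 at 24 h, against 8.41 and 8.43 at 0 h, 1.83-fold higher (adjusted p = 0.0327).

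Gbp3 was the 1 member that fell at 24 h. It had 9.24 and 9.13 before treatment, 9.87 and 8.54 at 4 h, 8.02 and 7.63 at 8 h, 7.77 and 7.0 at 12 h, and then 7.50 and 6.72 at 24 h. From 8 h each array was below both 0 h arrays, and at 24 h the fall of 2.07 ± 0.46 was 4.21-fold (adjusted p = 0.0174). Gbp2, its neighbour on the same chromosome, had 6.64 and 5.94 at 24 h, against 6.17 and 5.80 at 0 h, and did not pass. Of the effectors, Mx1 had 6.74 and 6.12 at 24 h, against 5.94 and 5.64 at 0 h (adjusted p = 0.188). Samhd1 had 9.72 and 10.25 at 24 h, against 9.76 and 9.77 at 0 h. The sensor Ifih1 had 9.70 and 9.07 at 24 h, against 8.20 and 7.93 at 0 h, separate but with an adjusted p of 0.0934.

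The 24 h count of 7 was 2 without 0 h array 1 and 1 without 0 h array 2, and 1 to 5 over all arrays left out in turn. Only the Parp14 call was kept in every alternative tried. Other probe sets gave a smaller rise for Herc6 (0.28 and 0.40 log2 units), Parp14 (0.23) and Stat2 (0.80), and a like one for Ddx58 (1.45). The second Stat2 probe set had 5.11 and 6.91 at 24 h, against 5.32 and 5.10 at 0 h, so only 24 h array 2 was higher. Array 1 at 4, 12 and 24 h had low 5′ signal, with a Gapdh 3′ minus 5′ difference of 2.09, 2.61 and 2.78, against 0.01 to 0.10 on the other arrays of this series. Without these 3 arrays 11 members passed at 24 h (9 higher and 2 lower), 8 at 8 h (1 higher and 7 lower) and 9 at 12 h (1 higher and 8 lower). The summed cDC markers were also higher with time, 54.1 to 54.5 at 24 h, against 41.5 to 42.7 at 0 h, and so were the pDC markers, 43.3 to 47.3 against 40.7 to 42.0, and the CDP markers, 25.5 to 25.6 against 23.4 to 23.7. The granulocyte markers summed to 31.6 to 33.6 at 24 h, against 39.0 to 39.2 at 0 h, and the monocyte and macrophage markers to 16.2 to 16.9 at 24 h, against 19.25 to 19.32 at 0 h. The part of the 5′ signal and of these markers in these results was not tested.

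Set against earlier times, in tests chosen after the data were seen, 24 h was higher than 4 h for 9 members (7.61% of genes) and lower for 1 (5.23%, 12.8% in all). Against 8 h it was higher for 7 (3.06% of genes) and lower for 0 (1.68%, 4.74% in all). Against 12 h it was higher for Xaf1 alone and lower for 0, where 0.0711% of genes passed as higher and 0% as lower. Of 30 tested members 28 had a higher mean at 24 h than at 12 h, with a median difference of 0.78.

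Over all times the F-test passed for 7 of 30 members, where 9.73% of genes passed. These were Xaf1 (adjusted p = 0.00558), Isg20 (0.00624), Herc6 (0.0193), Parp14 (0.0209), Usp18 (0.0386), Ddx58 (0.0393) and Gbp3 (0.0464). With the array number as a block 19 passed, where 2580 of all genes did. The count was 2 to 17 when single arrays were left out. It was 2 without either 0 h array, either 8 h array or 24 h array 2, 3 without 24 h array 1, 4 without 12 h array 2, 13 without 4 h array 1 and 17 without 4 h array 2.

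**Figure D5:**
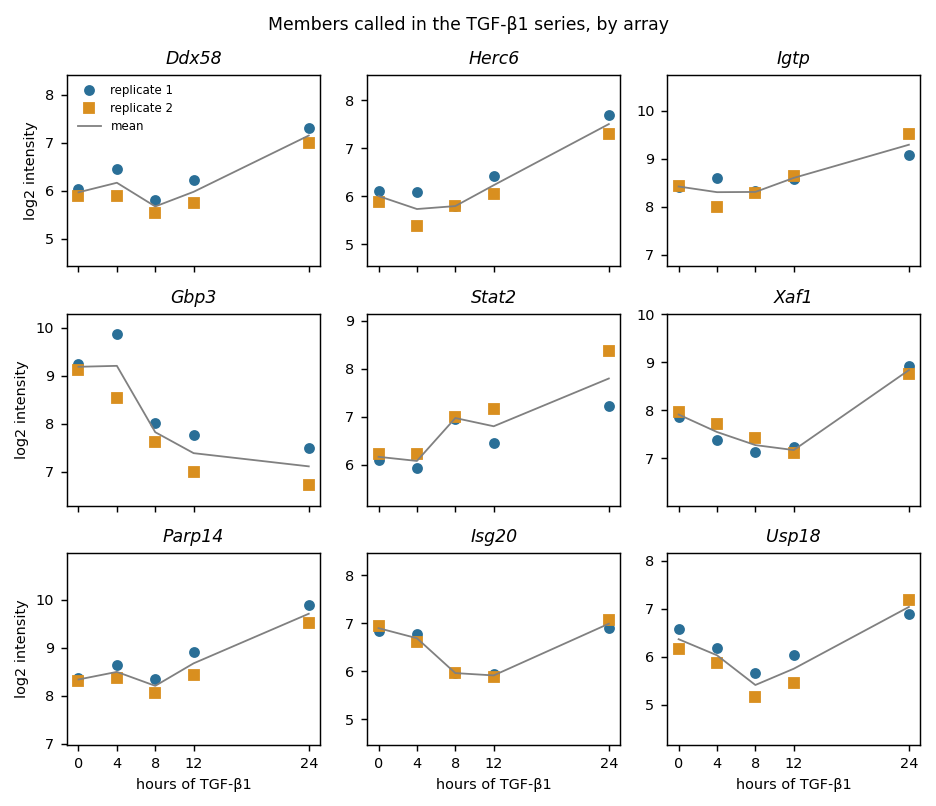
Log2 level (vertical axis, 4 units in every panel) against hours of TGF-β1 (horizontal axis) for 9 members, with both arrays as points and the mean as a line. Isg20 and Usp18 dip at 8 h and 12 h, Ddx58, Herc6, Igtp, Xaf1 and Parp14 are highest at 24 h, and Gbp3 is at 7.50 and 6.72 at 24 h, against 9.24 and 9.13 at 0 h.

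Most receptor, JAK-STAT and regulatory factor genes were higher in DC than in CDP, set against the 18.7% of all genes higher in cDC and the 21.7% higher in pDC. Of 9 tested receptor and JAK-STAT genes, 7 passed as higher in cDC and 0 as lower, and 7 as higher and 1 as lower in pDC. Irf9, the DNA-binding partner of STAT2, had 9.87 and 8.69 in cDC and 9.91 and 9.11 in pDC, against 6.41 and 5.81 in CDP. It rose by 3.17 in cDC (adjusted p = 0.00161) and by 3.40 in pDC (adjusted p = 0.000866). Jak2 rose by 2.43 in cDC and by 2.11 in pDC (adjusted p = 0.000145 and 0.00015). The receptor chain gene Ifnar1 had 9.42 and 9.90 in cDC and 11.37 and 11.52 in pDC, against 8.64 and 8.51 in CDP, and passed in both (adjusted p = 0.00791 and 0.000123). Ifnar2 passed in pDC, at 11.57 and 11.25 against 10.81 and 10.23 in CDP (adjusted p = 0.0176), and not in cDC (adjusted p = 0.357).

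Interferon regulatory factors passed as higher for 6 of 7 in cDC and 7 of 7 in pDC. Irf7, the factor that amplifies interferon output, had 9.09 and 5.18 in cDC and 9.88 and 8.10 in pDC, against 3.27 and 2.89 in CDP. It rose by 4.06 in cDC (adjusted p = 0.0265) and by 5.91 in pDC (adjusted p = 0.0051). Its cDC arrays stood far apart, as those of most members did. Of the genes for sensing and interferon induction, 4 of 9 passed as higher and 1 as lower in cDC, and 3 and 0 in pDC. Of 10 negative regulators, 3 passed as higher and 2 as lower in cDC, and 4 and 4 in pDC. Over all genes 18.7% passed as higher and 29.3% as lower in cDC, and 21.7% and 31.6% in pDC, so the negative regulators in cDC are near the background.

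Of 34 other interferon-induced genes, 19 passed as higher in cDC and 0 as lower, and 15 as higher and 4 as lower in pDC. The largest rise in both was that of Slfn5, a Schlafen family gene, with 11.42 and 9.17 in cDC and 11.75 and 8.44 in pDC, against 3.62 and 2.41 in CDP. Phf11d rose by 5.91 in cDC (adjusted p = 0.0057), and Ifi27l2a by 6.5 in pDC (adjusted p = 0.00926). The membrane proteins Ifitm1 and Ifitm2, which hinder virus entry, fell by 6.08 and 4.37 in pDC (adjusted p = 1.48e-05 and 0.000498). Ifitm1 had 7.44 and 8.12 in pDC, against 13.92 and 13.79 in CDP, while cDC had 13.78 and 13.72. Gbp7, a further guanylate-binding protein, had 6.85 and 4.43 in pDC, against 9.87 and 9.89 in CDP, and fell by 4.24 (adjusted p = 0.0149).

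In in vivo CDP, 3 of 9 receptor and JAK-STAT genes passed as higher than in CDP and 0 as lower, with Irf9 at 8.89 and 9.05 in the in vivo CDP, against CDP arrays of 6.41 and 5.81 (adjusted p = 0.000929). Of the 35 other interferon-induced genes tested there, 11 passed as higher and 2 as lower. These shares of higher calls lie near the 27.6% of all genes that passed as higher. Of the 7 regulatory factors, Irf1, Irf2, Irf3, Irf5 and Irf8 passed as higher and 0 as lower, and Irf8, a factor that CDP and DC depend on, had 14.50 and 14.45 in the in vivo CDP, against 11.11 and 11.47 in CDP (adjusted p = 6.24e-05). After 24 h of TGF-β1, 4 of 10 receptor and JAK-STAT genes passed as higher and 0 as lower, where 10.8% and 8.42% of all genes did. The receptor chain for type III interferon, Ifnlr1, had 5.15 and 5.56 before treatment, 6.02 and 5.84 at 4 h, 7.04 and 7.02 at 8 h, 8.14 and 8.37 at 12 h, and then 10.02 and 10.08 at 24 h. It was higher at each time than at the one before, and the 24 h rise was 4.70 (adjusted p = 1.86e-05). On the 10 arrays outside this series it lay at or just above their lowest value, in cDC too.

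Jak2 rose by 1.98 at 24 h (adjusted p = 0.00064) and Irf9 by 1.20 (adjusted p = 0.0148), while the type I receptor genes did not pass. Of the 7 regulatory factors Irf4 alone passed at 24 h, with 8.87 and 9.18 at 24 h, against 6.27 and 6.35 at 0 h. It rose by 2.72 (adjusted p = 0.000444), having risen by 1.19 at 12 h (adjusted p = 0.0369), and it passed the F-test (adjusted p = 0.00345). Irf7 differed by 0.22 at 24 h (adjusted p = 0.634). Socs1, an inhibitor of JAK kinases, had 4.80 and 5.44 at 24 h, against 6.03 and 6.48 at 0 h, and fell by 1.14 (adjusted p = 0.0454). Of 38 other interferon-induced genes, 10 passed as higher at 24 h and 1 as lower. Slfn8 (1.91), Slfn2 (1.58) and Slfn5 (1.42) had the largest log2 rises of that list, and the chemokine gene Cxcl10 was the one that fell, by 0.68 (adjusted p = 0.0355).

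The members varied together, as a description with no test. Over the 8 one-cycle arrays the median correlation between pairs of the 29 tested members was 0.85, against 0.02 between all genes. These points share the array split described above. Against the mean of the other members, r was highest for Herc6 (1.00), Xaf1 (0.99) and Ifit2 (0.98), and lowest for Gbp3 (-0.30), Gbp2 (0.44) and Oas1a (0.53). Over the 10 TGF-β1 arrays the median was 0.44, against 0.00 between all genes. There r was highest for Usp18 (0.94), Oas2 (0.94) and Mx1 (0.92), and lowest for Ifit3 (-0.44), Oasl1 (-0.24) and Gbp3 (-0.09). Gbp3 was thus among the lowest on both sets of arrays.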

How the data were processed

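The authors deposited log2 intensities per probe set, made with GCRMA (version not stated), a background correction and normalization, per the submitters' processing notes. No further scaling was applied. The table held 45101 probe sets (64 controls), of which 34958 had 1 symbol in a platform annotation, 932 several, and the rest none. Genes, 18194 in all, took their probe set with the highest mean. In R 4.3.3, limma 3.58.1 (lmFit, then eBayes without trend or robust) was fitted on 8 one-cycle arrays, on 10 TGF-β1 arrays, and, for in vivo CDP, on the 10 arrays sharing the lowest value, over all genes with at least 2 of the fitted arrays above 5. Two-sided p-values were adjusted over all tested genes (Benjamini-Hochberg, threshold 0.05). Where the lower group had both arrays under 5, the fold was taken against 5 and written "at least", and the p tests the full difference.

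Members and lists were chosen with earlier results of these data known. Array values were given for called members with the largest differences (up to 8 higher and 5 lower per comparison), a set of key members, and up to 3 genes per pathway list. The number of arrays limits the precision. Limma's tests were tested on simulated data. Promoters are from RefSeq (GRCm38.p6).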

Additional observations from a re-analysis of the deposited data

Results flagged for a closer look

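Tests of the difference between effects against the same controls passed for the following members. Gbp2 differed between the effects in cDC and in pDC by 5.83 log2 units (limma adjusted p = 0.00112). It was higher than CDP in cDC and lower in pDC on all 4 DC arrays. The CDP term cancels, so this is the cDC against pDC test given above and no further support.

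The effect of TGF-β1 at 24 h was set against those at earlier times in tests chosen after the data were seen. The 0 h term cancels, so these are the tests of 24 h against earlier times given above. Against 4 h, 9 of 30 members passed as higher and 1 as lower, where 12.8% of genes passed. Herc6 (1.77), Stat2 (1.72), Oasl2 (1.62), Dhx58 (1.32), Xaf1 (1.29), Parp14 (1.21), Igtp (0.99), Ddx58 (0.98) and Eif2ak2 (0.86) were higher at 24 h than at 4 h, with adjusted p of 0.00499 for Xaf1 to 0.0433 for Dhx58. Gbp3 was lower, at -2.09 (adjusted p = 0.024). The 4 h array 1 and 24 h array 1 had low 5′ signal, and its part was not tested.

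Against 8 h, 7 members passed as higher and 0 as lower, where 4.74% of genes passed. These were Herc6 (1.71), Usp18 (1.63), Xaf1 (1.56), Parp14 (1.5), Ddx58 (1.48), Isg20 (1.03) and Oas2 (0.90), with adjusted p of 0.00626 for Xaf1 to 0.0499 for Oas2. Against 12 h, Xaf1 alone passed (1.67, adjusted p = 0.0338), where 0.0711% of genes did, although 28 of 30 members were higher at 24 h than at 12 h.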

How the results depend on the processing

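Counts of members passing in limma changed with the processing, and the causes were not tested. For cDC against CDP the count of 14 was 4 with no filter on low values, 9 in a fit of only the groups compared, and 28 without both DC arrays numbered 2. For pDC against CDP the count of 11 was 5 with no filter and 27 without both DC arrays numbered 2. In that last setting Ifih1 was 1.39 higher in pDC (adjusted p = 0.0378), against -0.38 with all arrays. For cDC against pDC the count of 1 was 2 without both DC arrays numbered 1 and 8 without both numbered 2. For in vivo CDP the count of 2 was 0 with no filter, 0 with values under 5 raised to 5, and 10 with only the groups compared. CDP against MPP gave 1 in place of 0 with only the groups compared. At 8 h the count of 1 was 8 with only the groups compared, 8 without the 3 arrays of low 5′ signal, and 4 with the Gapdh difference as a covariate. At 12 h the count of 1 was 5, 9 and 8 under these settings. At 24 h the count of 7 was 11 without the 3 arrays. The F-test's 7 became 17 without them and 20 with the covariate.

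With replicate number fitted as a block, counts were 3 for cDC against pDC, 4 for in vivo CDP, 5 at 8 h, 8 at 12 h, 14 at 24 h and 19 for the F-test, and it moved no other count past 1.5 times. Deviations of same-numbered arrays correlated at -0.06 to 0.58 on the one-cycle arrays and at 0.27 to 0.85 in the TGF-β1 series. The labels do not say what a shared number stands for, and only 2 numbers exist per comparison. At 4, 12 and 24 h the number coincides with the low 5′ signal of array 1.

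Leaving out single arrays gave 6 to 22 for cDC against CDP, 6 to 18 for pDC against CDP, 1 to 6 for cDC against pDC, 0 to 1 for in vivo CDP, 0 to 0 for CDP against MPP, 0 to 2 at 4 h, 0 to 0 at 8 h and at 12 h, 1 to 5 at 24 h, and 2 to 17 for the F-test. A group left with 1 array is assumed to vary like the others. Calls kept under every alternative tried were those of Mx1, Samhd1, Stat2 and Trim30a in cDC and in pDC against CDP, Gbp3 in pDC against CDP, Gbp2 in cDC against pDC, and Parp14 at 24 h. Centring, quantile normalization, eBayes with trend and robust, and the mean of all probe sets kept every total within 1.5 times. For in vivo CDP, though, the mean of all probe sets gave 2 higher and 0 lower in place of 1 and 1, with Gbp2 at an adjusted p of 0.0531. Leaving out both DC arrays of 1 number was chosen after the data were seen.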
